A study of Mus musculus with 44 samples.

Results

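Chromatin accessibility was described around *Otx2*, *Fgf5*, *Pou3f1*, *Lef1* and *Zic2*, 5 genes used as markers of the formative and primed states, at stages that come before those states. The members were the ATAC-seq peaks of 200 bp lying within 30 kb of the coordinates given for each gene, a rule that used position only. It found 60 of the 152393 peaks, with 15 at *Otx2*, 8 at *Fgf5*, 7 at *Pou3f1*, 19 at *Lef1* and 11 at *Zic2*. The farthest member lay 28643 bp from its gene (at *Otx2*) and the nearest peak left out 30672 bp (at *Lef1*). ATAC-seq marks open chromatin by the insertions of the Tn5 transposase, and each value is an rlog value, a log2 scale corrected for depth, which shrinks the differences of weak peaks. The 44 libraries were pools of mouse embryos labelled B6C3F1, 3 per group for the morula (E2.75) and late morula (E3.25) of *Pou5f1* Ctrl and *Pou5f1*-KO embryos, and 4 per group for the early (E3.75) and late (E4.5) inner cell mass (ICM) of *Pou5f1* Ctrl, *Pou5f1*-KO, *Sox2* Ctrl and *Sox2*-KO embryos. KO embryos came from floxed mothers with *Zp3-Cre*, which acts in the growing oocyte, and a father heterozygous for *Pou5f1* mKO2 or *Sox2* EGFP, and lacked the maternal and the zygotic gene; Ctrl embryos lacked the maternal contribution alone and kept the paternal copy. All ICM groups were grown with 1 µM of the MEK inhibitor PD0325901 and isolated by immunosurgery, and the morulae were not, so stage, inhibitor and isolation cannot be told apart from late morula to ICM. Fewer open cells in a pool and less open chromatin per cell cannot be told apart either.

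The epiblast leaves the naive state around implantation, passes through a formative state that can respond to lineage cues, and enters the primed state. Otx2, a homeodomain factor, and Pou3f1 (Oct6), a POU factor, act with Oct4, the product of *Pou5f1*, at enhancers of that later stage, and Zic2 is a zinc finger factor that also occupies them. Fgf5 is a secreted fibroblast growth factor and a classical marker of the post-implantation epiblast, and Lef1 is an HMG factor that carries β-catenin to Wnt targets. Because these genes are used after the ICM, their neighbourhoods can show which regulatory DNA is open ahead of them.

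Each peak is named below by its gene and by the distance in bp of its centre from the nearest annotated start of any transcript of that gene, negative when upstream. The sequences of 8 peaks are given first, as those on which the comparisons turn; all are from the plus strand of GRCm38 (mm10), taken from RefSeq. Capitals mark exact matches, on either strand, to the short words that OCT factors (ATGCAAAT), SOX factors (CATTGTT), TCF and LEF factors (ATCAAAG), OTX factors (TAATCC), TEAD factors (CATTCC) and GATA factors (AGATAA) prefer; a match is a description and not a bound site.
Otx2 +7228, intergenic and downstream of the gene, chr14:48654605-48654804: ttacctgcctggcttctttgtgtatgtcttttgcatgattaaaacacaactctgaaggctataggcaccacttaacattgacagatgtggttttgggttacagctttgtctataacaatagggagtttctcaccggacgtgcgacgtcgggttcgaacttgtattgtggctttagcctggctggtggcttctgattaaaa
Otx2 +6835, intergenic, chr14:48654998-48655197: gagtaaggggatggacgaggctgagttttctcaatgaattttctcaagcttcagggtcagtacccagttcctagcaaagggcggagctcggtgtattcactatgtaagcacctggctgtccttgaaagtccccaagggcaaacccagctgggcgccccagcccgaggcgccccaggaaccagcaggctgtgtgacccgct
Otx2 -131, in an intron of the gene and upstream of an internal start, chr14:48662904-48663103: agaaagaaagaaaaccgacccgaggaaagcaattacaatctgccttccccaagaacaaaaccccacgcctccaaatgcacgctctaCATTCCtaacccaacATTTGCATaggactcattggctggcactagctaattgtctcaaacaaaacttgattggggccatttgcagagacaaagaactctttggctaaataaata
Otx2 -18636, in an intron of the antisense gene Otx2os1, chr14:48692356-48692555: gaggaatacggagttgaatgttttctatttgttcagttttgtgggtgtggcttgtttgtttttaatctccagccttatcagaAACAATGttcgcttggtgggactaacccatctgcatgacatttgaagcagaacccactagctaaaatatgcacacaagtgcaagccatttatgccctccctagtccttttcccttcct
Pou3f1 -11718, in an intron of Gm2164, chr4:124644990-124645189: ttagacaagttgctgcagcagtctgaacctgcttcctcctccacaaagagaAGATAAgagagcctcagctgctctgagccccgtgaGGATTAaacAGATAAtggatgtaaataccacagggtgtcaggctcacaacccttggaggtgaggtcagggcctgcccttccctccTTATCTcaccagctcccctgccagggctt
Zic2 -1903, in a noncoding exon of 2610035F20Rik, chr14:122473433-122473632: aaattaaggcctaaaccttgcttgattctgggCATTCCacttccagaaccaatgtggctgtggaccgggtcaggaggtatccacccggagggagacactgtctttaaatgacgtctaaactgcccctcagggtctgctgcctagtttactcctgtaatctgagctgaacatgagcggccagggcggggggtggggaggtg
Zic2 +12755, in a coding exon of Gm10837, chr14:122490756-122490955: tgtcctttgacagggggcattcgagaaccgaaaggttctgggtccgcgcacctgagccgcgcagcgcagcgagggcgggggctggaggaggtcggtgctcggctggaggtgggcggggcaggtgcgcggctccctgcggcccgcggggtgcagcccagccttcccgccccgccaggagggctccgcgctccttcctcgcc
Fgf5 +39189, intergenic and downstream of the gene, chr5:98293502-98293701: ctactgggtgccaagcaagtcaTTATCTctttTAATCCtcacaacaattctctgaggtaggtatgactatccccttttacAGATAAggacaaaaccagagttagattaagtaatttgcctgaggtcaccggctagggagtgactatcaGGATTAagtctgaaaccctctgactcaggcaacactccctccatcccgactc

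The OCT word was found in 1 member, Otx2 -131, and the SOX word in 1, Otx2 -18636, against 2.39% and 3.04% of all peaks. The composite OCT-SOX word, the SOX word with any base at its second position directly followed by the OCT word, with up to 3 mismatches, was in none of the 60 and in 3.13% of all peaks, and the TCF-LEF word in none and in 2.78%. OTX words were in 12 members (20.0%, against 11.5% of all peaks), GATA words in 10 (16.7%, against 17.5%) and TEAD words in 8 (13.3%, against 18.9%). Fgf5 +39189 held 2 OTX and 2 GATA words and Pou3f1 -11718 held 1 OTX and 3 GATA words, whereas Otx2 +7228, Otx2 +6835 and Zic2 +12755 held none of the words searched. The members' median GC content was 53.0% and that of all peaks 50.0%. The *Zic2* peaks were richer in GC and CpG, with a median of 59.5% GC and 11 CpG per peak against 2.0 CpG over all peaks, and the *Otx2* peaks had 49.5% GC and 4.0 CpG.

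Of the 60 peaks, 27 lay in introns, 19 between genes, 5 in coding exons, 5 in noncoding exons and 4 over a UTR, and the *Otx2* window was the most densely covered, with 21.13 peaks per 100 kb against 9.64 to 16.92 in the other windows. Of the 60, 25 had a mean at or above 2.43, the median over all peaks. The strongest were not at start sites: *Lef1* +135859 (mean rlog 6.53) and +135413 (6.38) lie over *Hadh*, which encodes a mitochondrial enzyme of fatty acid oxidation, and *Fgf5* +39189 (5.23) lies far beyond the gene. Of the 19 *Lef1* peaks 8 overlap *Hadh*, so the *Lef1* window is in part that of another gene, and no peak lay within 1 kb of a *Lef1* start, the nearest being 5929 bp away. The *Zic2* window also holds *Zic5*, a neighbour of the same family, *Gm5089* and *Gm10837*, and the *Pou3f1* window reaches into *Utp11*.

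**Figure D1:**
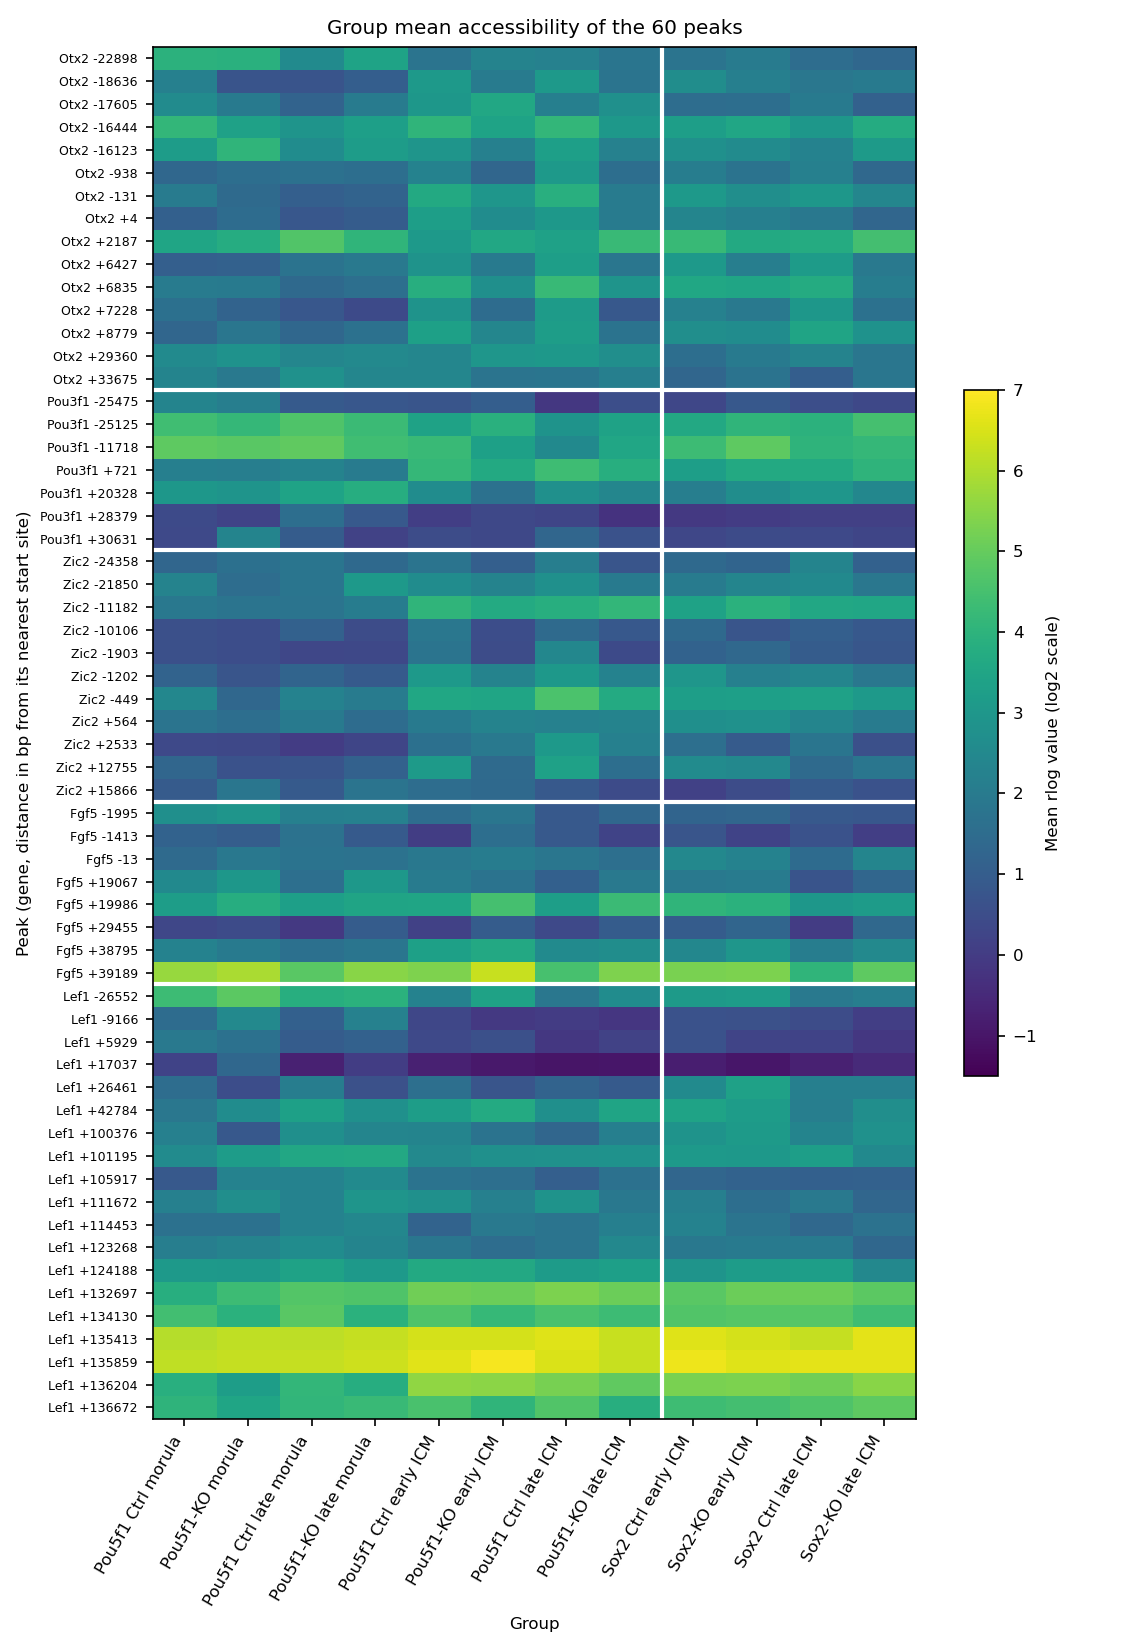
Mean rlog value (colour, log2 scale) of the 60 peaks in each of the 12 groups, with peaks in rows by gene and by distance in bp from the nearest start site of that gene, and groups in columns. Many *Otx2* and *Zic2* rows turn brighter from the late morula to the ICM of Ctrl embryos, and *Lef1* +135413 and +135859 are bright in every group.

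As a check of the labels, the peak in the deleted part of the *Sox2* locus had rlog values of 0.49 to 1.19 in the 8 *Sox2*-KO libraries and 1.96 to 3.28 in their Ctrl. The peak over *Pou5f1* exon 3 did not separate the genotypes (2.17 to 3.45 in KO and 2.04 to 3.0 in Ctrl late ICM). Exons 2 to 5 are described as removed, and the floxed maternal allele loses them. The paternal mutant allele is described with a cassette in intron 1, so the sources used here do not settle whether it also lacks exon 3; if it does, these values go against the labels. KO embryos were picked by mKO2 fluorescence before pooling, and the study examined embryos separated in this way by immunostaining, a check of the genotype that does not rest on accessibility. Accessibility therefore checks the *Sox2* labels and not the *Pou5f1* labels. The start site peak of *Nanog*, an epiblast marker, averaged 5.13 in early and 5.19 in late *Pou5f1* Ctrl ICM, 4.86 and 3.98 in Ctrl morula and late morula, and 3.92 and 3.53 in *Pou5f1*-KO early and late ICM, so its level does not by itself set the ICM apart from the morula. Other markers differed from it. That of *Prdm14* averaged 1.81 and 1.43 in Ctrl morula and late morula and 4.16 and 4.15 in Ctrl early and late ICM. Those of *Klf2* and *Tfcp2l1* averaged 6.51 and 5.33 in Ctrl and 6.45 and 5.38 in *Pou5f1*-KO late ICM. Of the 11 start site peaks of naive genes 9 had lower and 2 higher means in *Pou5f1*-KO late ICM (-1.66 to 0.13, median -0.54). Library medians were between 2.35 and 2.63 and replicates of a group correlated at 0.762 to 0.908 across peaks; the sequencing depth is unknown. Libraries were treated as replicates of their group, and p-values measure the spread between these pools.

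Which of these peaks opened before the formative state was asked in *Pou5f1* Ctrl embryos. From late morula to early ICM 17 members rose and 5 fell (28.3% and 8.33%), where 14.7% and 15.0% of all peaks were called in these directions. From morula to late ICM 17 rose and 11 fell (28.3% and 18.3%), against 21.9% and 18.7% of all peaks. Peaks of other gene lists were read in the same comparison. Of 191 at trophectoderm genes 57 rose and 18 fell (29.8% and 9.42%), and of 209 at naive genes 77 and 17 (36.8% and 8.13%). At 100 peaks of primitive endoderm genes 17 rose and 21 fell (17% and 21%), and at 195 of further formative genes, a list described below, 44 and 42 (22.6% and 21.5%). In the later comparison 7 of 15 *Otx2* and 6 of 11 *Zic2* peaks rose, with median differences of 0.89 and 1.83 over each locus, and 1 and 0 fell; the median over all peaks was 0.13. At *Fgf5* no peak rose and 3 of 8 fell, at *Pou3f1* 1 rose and 3 of 7 fell, and at *Lef1* 3 rose and 4 of 19 fell. Between morula and late morula no member passed the test of limma, with 6 higher and 8 lower at an unadjusted p under 0.05. Under quantile normalization 6 were called lower, where 4.49% of all peaks were, and with only the libraries compared 1 lower and 1 higher, where 3.31% and 3.92% of all peaks were. From early to late ICM *Pou3f1* -11718 alone was called in *Pou5f1* Ctrl, and *Fgf5* +39189 alone in *Sox2* Ctrl, both lower, where 0.18% and 0.121% of all peaks fell. The call at *Fgf5* +39189 was lost without *Sox2* Ctrl early ICM replicates 2 or 3 or late ICM replicates 1 or 2 (adjusted p up to 0.276), with only the libraries compared (0.0744) and with peaks under the median rlog removed (0.052).

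The start site peaks of *Otx2*, *Pou3f1* and *Zic2* rose from the morula stages to the ICM of Ctrl embryos, and that of *Fgf5* was not called. The *Otx2* +4 peak, over a UTR of the gene, had values of 0.42, 1.48 and 0.53 in the Ctrl late morula libraries and 3.10, 3.68, 2.96 and 3.34 in the Ctrl early ICM libraries. The groups did not overlap, and the difference was 2.46 ± 0.47 (SE; adjusted p = 3.01e-05). Its 12 group means ran from 3.27 ± 0.31 (SD, n = 4) in *Pou5f1* Ctrl early ICM to 0.81 ± 0.59 (n = 3) in Ctrl late morula, and no pair of neighbours in that order differed by more than the larger of their SDs. The *Pou3f1* +721 peak had values of 1.62, 1.91 and 2.99 in Ctrl morula and 4.23, 3.97, 4.52 and 4.70 in Ctrl late ICM, and rose by 2.19 ± 0.45 (adjusted p = 5.07e-05). Its 8 ICM groups, at 3.28 to 4.36, all stood above its 4 morula groups, at 2.02 to 2.31, and the gap of 0.97 between them was the one step larger than the SDs. The *Zic2* -449 peak, in a noncoding exon of the divergent gene *2610035F20Rik*, had values of 2.03, 2.52 and 2.79 in Ctrl morula and 4.67, 4.30, 4.98 and 4.46 in Ctrl late ICM (2.16 ± 0.46, adjusted p = 8.03e-05). *Pou5f1* Ctrl late ICM, at 4.60 ± 0.29, stood apart from the next group, *Pou5f1*-KO late ICM at 3.70 ± 0.46, by more than the larger SD, although that KO difference was not called (adjusted p = 0.127). The other such step was from *Pou5f1*-KO late morula, at 2.02 ± 0.34, to *Pou5f1*-KO morula, at 1.32 ± 0.14.

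The *Fgf5* -13 peak stayed low in every group, between 1.43 ± 0.99 (n = 3) in Ctrl morula and 2.46 ± 0.45 (n = 4) in *Sox2* Ctrl early ICM, and no neighbouring groups in its order differed beyond their SD. From morula to late ICM it differed by 0.41 ± 0.49 (adjusted p = 0.528). Its KO and Ctrl libraries overlapped in all 6 KO comparisons. Among 11845 or more peaks within 100 bp of a start site of another gene, the most similar patterns over the 12 group means were those at *Brdt* and *Tnk1* for *Otx2* (r = 0.953 and 0.946), *Abtb2* and *Ly75* for *Pou3f1* (0.981 and 0.979), *Mreg* and *Golga4* for *Zic2* (0.971 for each), and *Dnajb3* and *9530059O14Rik* for *Fgf5* (0.84 and 0.831). These correlations describe 12 means from shared libraries.

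**Figure D2:**
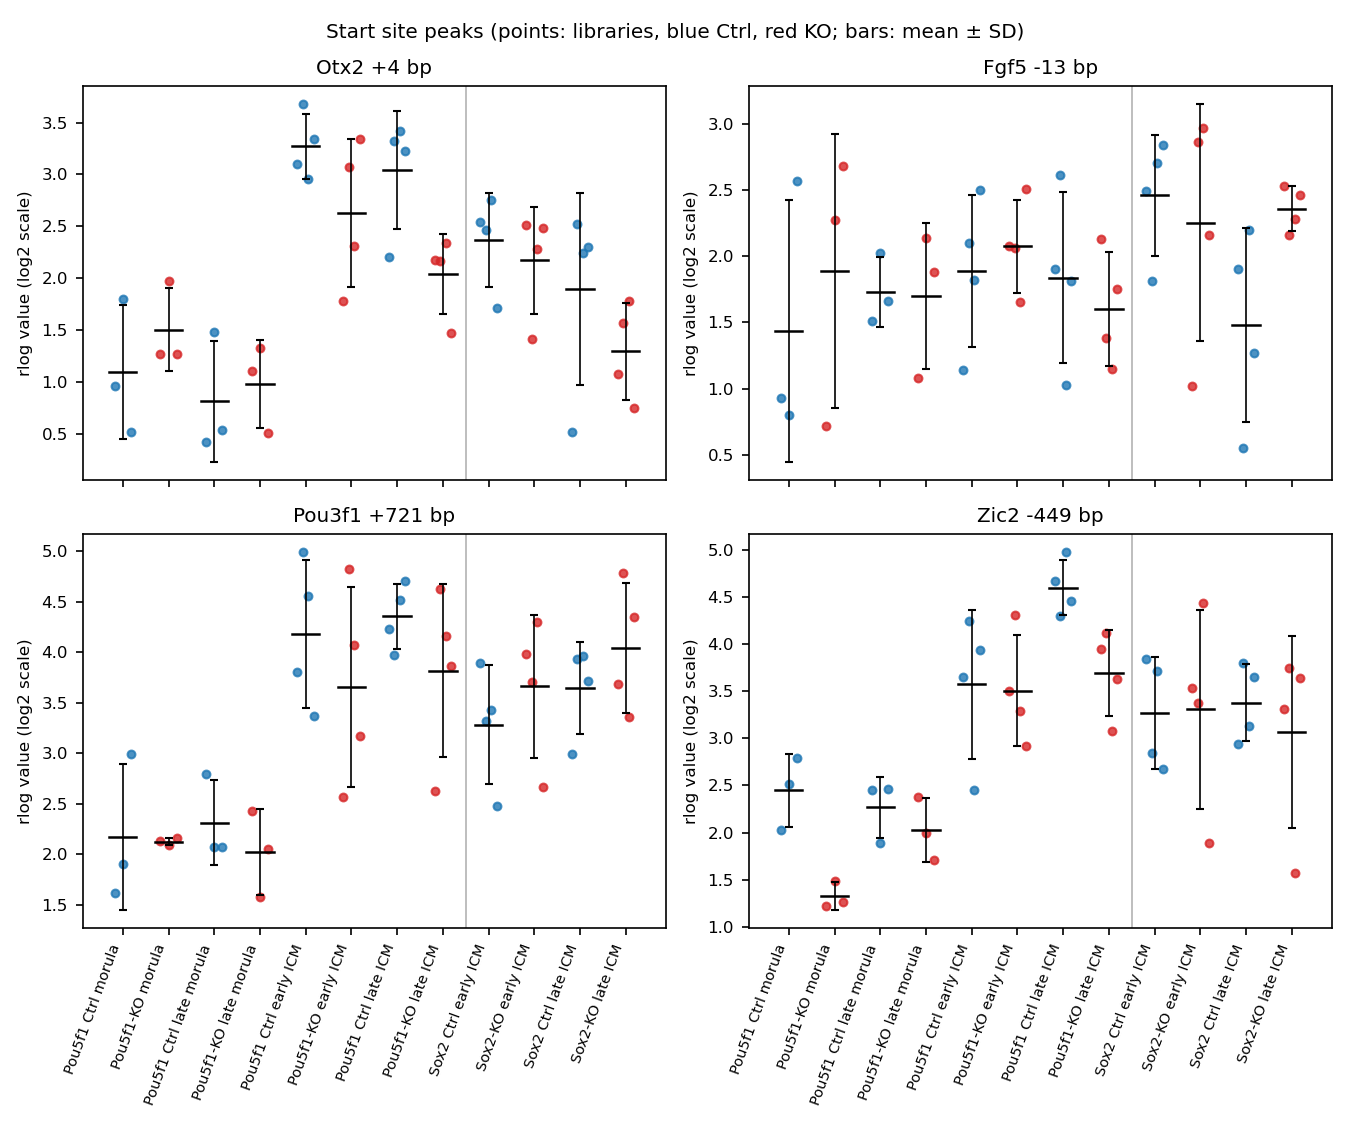
rlog values (log2 scale) of the 4 start site peaks in each of the 12 groups, with 1 point per library, Ctrl in blue, KO in red and bars for mean ± SD. *Otx2* +4, *Pou3f1* +721 and *Zic2* -449 are higher in the ICM groups than in the morula groups of *Pou5f1* Ctrl embryos, and *Fgf5* -13 stays between 1.43 and 2.46 in all group means.

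Whether accessibility changed without Oct4 was asked by comparing *Pou5f1*-KO with Ctrl at each stage. In the late ICM 11 of the 60 members fell and 2 rose (18.3% and 3.33%), where 10.1% and 8.19% of all peaks were called in these directions. With 1 library left out 5 to 11 fell and 0 to 2 rose: 5 fell without Ctrl replicate 3 and 7 without KO replicate 1 or 2, none rose without KO replicate 1, and 1 rose without Ctrl replicates 2 or 3 or KO replicates 2 or 4. With peaks under the median rlog removed 5 fell. Of the 11, 8 were *Otx2* peaks and 3 were *Zic2* peaks, so 53.3% of the *Otx2* peaks fell, and none at *Pou3f1*, *Fgf5* or *Lef1*. The median difference was -1.09 over the *Otx2* and -0.77 over the *Zic2* peaks, and -0.04 over all peaks. In the early ICM 4 fell and 2 rose (6.67% and 3.33%, against 5.43% and 2.753% of all peaks), which is near the background. Of those that fell 1 was an *Otx2* and 3 were *Zic2* peaks. With 1 library left out 1 to 3 fell and 1 to 4 rose there, with the lowest count of falls without Ctrl replicate 2 and the highest count of rises without Ctrl replicate 4. In the late morula no member was called by limma, with 4 higher and 2 lower at an unadjusted p under 0.05. Under quantile normalization 0.686% of all peaks were called lower and 0.173% higher there, so this is near the background. In the morula 1 rose, where 0.0518% of all peaks did. The members called in the KO late ICM included 8 of the 17 that had opened from late morula to early ICM in Ctrl, a comparison with no library in common: 47.1% of the members that opened and 72.7% of those that fell, where the shares over all peaks were 36.1% and 52.4%. These 8 were *Otx2* +8779, +7228, +6835, -131, -16444 and -18636 and *Zic2* -1903 and +12755. Of these, *Otx2* -16444 averaged 4.13 in Ctrl morula, 2.91 in late morula and 4.06 in early ICM, and its late ICM level differed from morula by 0.01 ± 0.43 (adjusted p = 0.989). Its opening call (adjusted p = 0.0329) was lost without Ctrl late morula replicates 1 or 3 or Ctrl early ICM replicates 1 or 2 (up to 0.157).

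The *Otx2* peaks that fell lay in 3 groups, downstream of the gene, around its internal and distal starts, and far upstream inside *Otx2os1*. Downstream, +6427, +6835 and +7228 form a cluster and +8779 lies beyond them. Otx2 +7228, whose sequence holds none of the words, had values of 3.70, 3.12, 2.83 and 3.01 in Ctrl late ICM and 2.10, 0.46, 0.28 and 0.51 in *Pou5f1*-KO late ICM. All 4 KO libraries were lower than every Ctrl library, and the difference was -2.33 ± 0.43 (adjusted p = 1.84e-05), the smallest adjusted p of the 60 in this comparison. The same peak had fallen in the early ICM, where Ctrl values of 2.28, 3.29, 3.24 and 2.63 faced KO values of 1.71, 1.06, 0.93 and 2.27 (-1.37 ± 0.43, adjusted p = 0.0305). The late ICM effect minus the early ICM effect was -0.96 ± 0.61, which did not pass the test (adjusted p = 0.732). At Otx2 +6835 Ctrl late ICM values were 3.48, 4.30, 4.54 and 4.63 and KO values 3.51, 1.97, 3.29 and 2.86, so 1 KO library reached the lowest Ctrl library (-1.33 ± 0.44, adjusted p = 0.0215). Its neighbours +6427 and +8779 fell by 1.42 and 1.47 (SE 0.45 and 0.44; adjusted p = 0.0165 and 0.0117).

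Inside the gene, Otx2 -131, the one member with the OCT word, had values of 3.49, 4.05, 3.65 and 4.30 in Ctrl late ICM and 1.11, 2.52, 2.03 and 2.42 in KO late ICM. The groups did not overlap (-1.86 ± 0.43, adjusted p = 0.000602). In Ctrl this peak had opened from 1.06, 1.43 and 0.74 in the late morula to 3.85, 3.99, 3.49 and 3.36 in the early ICM (2.60 ± 0.46, adjusted p = 6.93e-06), the best supported opening among the *Otx2* peaks at that step. Otx2 -938, upstream of the most distal start, fell by 1.49 ± 0.44 in the KO late ICM (adjusted p = 0.00975). Far upstream, -16444 fell by 1.09 ± 0.40 (adjusted p = 0.0405) and -18636, the one member with the SOX word, by 1.33 ± 0.45 (adjusted p = 0.028). Otx2 -18636 had values of 2.21, 3.54, 3.70 and 2.98 in Ctrl and 1.84, 1.71, 2.47 and 1.09 in KO late ICM, so the highest KO library overlapped the lowest Ctrl library.

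The start site peak Otx2 +4 was not among those called. Its Ctrl late ICM values of 2.20, 3.32, 3.42 and 3.23 overlapped the KO values of 2.17, 2.16, 2.34 and 1.47, and the difference was -1.01 ± 0.44 (adjusted p = 0.0957). The strongest *Otx2* peak, +2187 in an intron, went the other way, from 4.86, 4.69 and 4.54 in Ctrl late morula to 3.18, 3.53, 2.38 and 3.24 in Ctrl early ICM (-1.61 ± 0.41, adjusted p = 0.00138), and differed by 0.88 ± 0.38 in the KO late ICM (adjusted p = 0.0924). The calls at +7228 and -131 in the late ICM held with each of the 8 libraries left out. The others did not: +8779 and -938 lost the call without KO replicate 1 or Ctrl replicate 3, +6835 without KO replicate 2 or Ctrl replicates 3 or 4, +6427 without KO replicates 1 or 4 or Ctrl replicate 3, -18636 without KO replicates 2 or 4 or Ctrl replicates 2 or 3, and -16444 without any of 6 libraries (KO 1, 2, 4 and Ctrl 1, 3, 4), with adjusted p up to 0.13. Under quantile normalization -16444 also lost the call (adjusted p = 0.061).

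**Figure D3:**
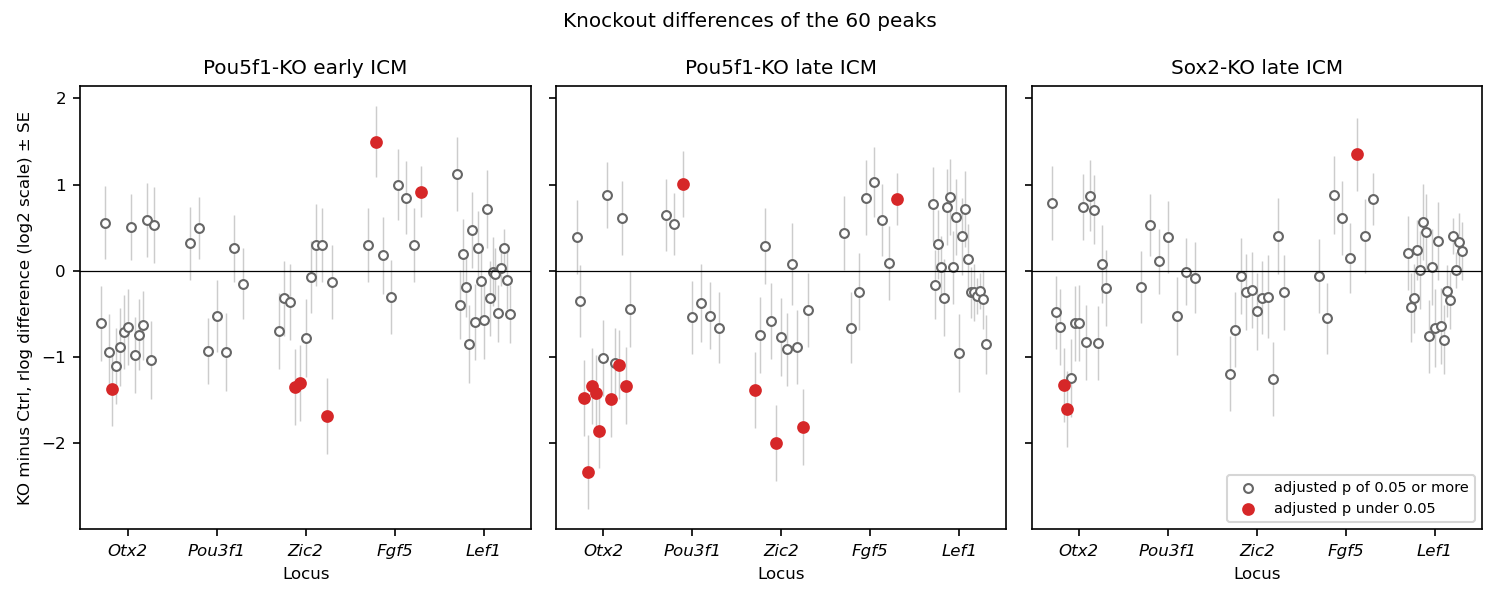
KO minus Ctrl differences (rlog, log2 scale, ± SE) of the 60 peaks by locus in *Pou5f1*-KO early ICM, *Pou5f1*-KO late ICM and *Sox2*-KO late ICM, with peaks ordered along each locus and red points for an adjusted p under 0.05. In the middle panel 8 *Otx2* and 3 *Zic2* peaks are red below 0, and no *Lef1* peak is red in any panel.

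At *Zic2* the same direction was seen for fewer peaks, and each that fell lay nearest to a start of another gene. In the late ICM these were -24358, 38 bp from *Gm5089*, -1903, 47 bp from *2610035F20Rik*, and +12755, 269 bp from *Gm10837*. The further early ICM call, -10106, lay 348 bp from a start of *Zic5*. Which gene these peaks serve was not tested. Zic2 -1903 had values of 1.47, 2.23, 3.02 and 2.98 in Ctrl late ICM and 0.25, 0.55, -0.11 and 1.01 in KO late ICM, with no overlap (-2.0 ± 0.44, adjusted p = 0.000315). Its means in the morula stages of both genotypes were 0.32 to 0.57, and it had opened in the Ctrl early ICM (1.46 ± 0.47 over late morula, adjusted p = 0.0135), a call lost without Ctrl late morula replicates 2 or 3 or Ctrl early ICM replicate 2 (up to 0.0969). Zic2 +12755, the GC-rich peak over *Gm10837*, had values of 3.03, 3.92, 3.06 and 3.48 in Ctrl and 0.78, 0.47, 2.43 and 2.56 in KO late ICM, again with no overlap (-1.81 ± 0.44, adjusted p = 0.0013). It had fallen in the early ICM, from 2.94, 3.65, 2.48 and 3.45 to 1.73, 1.08, 1.32 and 1.69 (-1.68 ± 0.44, adjusted p = 0.00637). Zic2 -24358, at the start of *Gm5089*, fell by 1.38 ± 0.44 in the late ICM (adjusted p = 0.0166).

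At that earlier ICM stage Zic2 -1903 fell by 1.30 ± 0.44 (adjusted p = 0.0462) and -10106, in a coding exon of *Zic5*, by 1.35 ± 0.44 (adjusted p = 0.0397). The start site peak Zic2 -449, higher in each of the 4 Ctrl late ICM libraries than in the KO libraries of 3.95, 4.12, 3.08 and 3.63, differed by -0.91 ± 0.42 (adjusted p = 0.127). The strongest peak of the locus, -11182 in a coding exon of *Zic5*, opened in Ctrl from 1.26, 2.31 and 1.76 in the late morula to 3.78, 4.39, 4.42 and 3.69 in the early ICM (2.30 ± 0.48, adjusted p = 0.000118) and was at 3.60, 4.47, 4.56 and 3.83 in the KO late ICM, where it differed from Ctrl by little (0.29 ± 0.44, adjusted p = 0.717). Zic2 +2533, downstream of the gene, had the largest rise of the 60 from morula to late ICM (2.72 ± 0.47, adjusted p = 1.75e-06); its values were 0.54, 0.43 and 0.18 in Ctrl morula and 3.63, 3.08, 2.71 and 2.98 in Ctrl late ICM. With each library left out, the late ICM calls at -1903 and +12755 and the early ICM call at +12755 held. The call at -24358 was lost without Ctrl replicate 1 or KO replicates 2 or 4 (adjusted p up to 0.068). In the early ICM -1903 lost its call without KO replicates 1, 2 or 3 or Ctrl replicates 2 or 4 (up to 0.276), -10106 without any library other than KO replicate 3 (up to 0.125), and Otx2 +7228 without replicate 2 or 3 of either genotype (up to 0.121). Under quantile normalization the early ICM calls at Zic2 -1903 and Otx2 +7228 were lost (adjusted p = 0.0667 and 0.0515), and with only the libraries compared those at Zic2 -1903, Zic2 -10106 and Otx2 +7228 (0.0758, 0.054 and 0.0656).

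**Figure D4:**
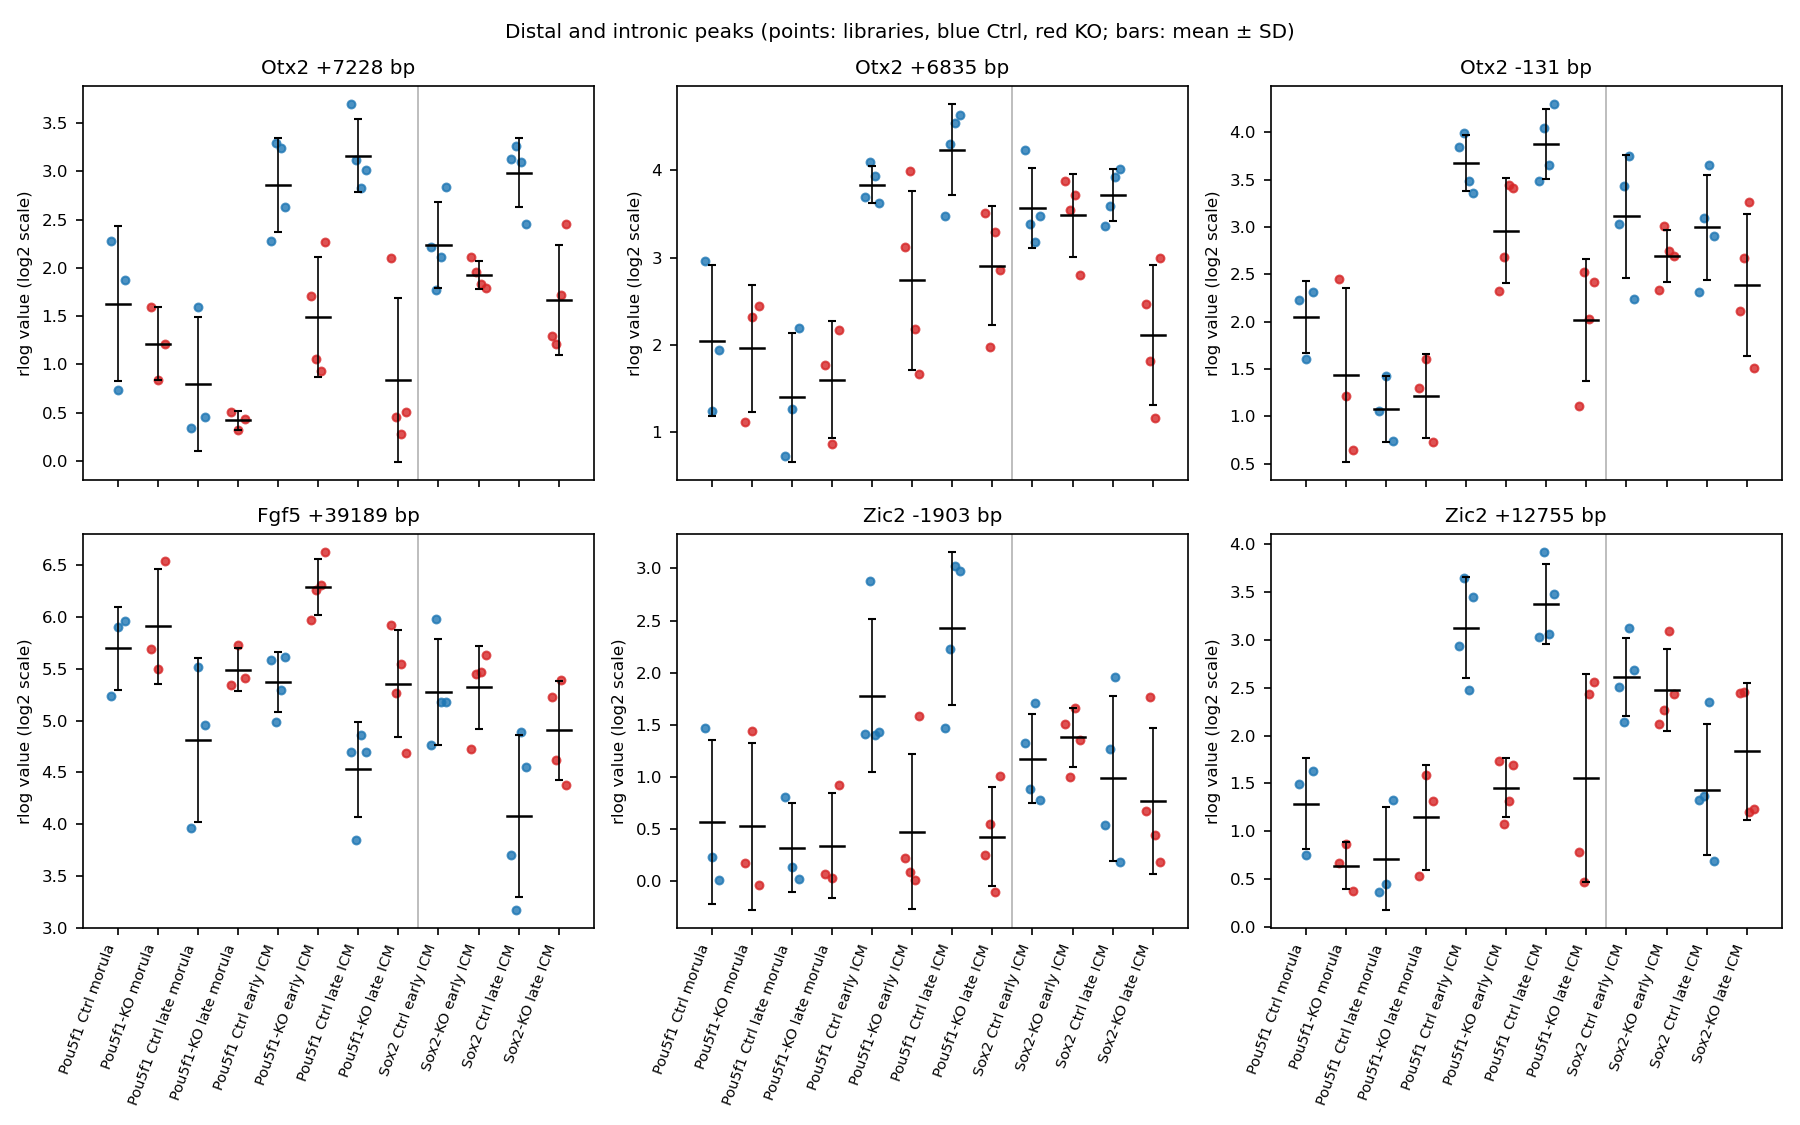
rlog values (log2 scale) of 6 named peaks in each of the 12 groups, with 1 point per library, Ctrl in blue, KO in red and bars for mean ± SD. Of these, *Zic2* -1903 and +12755 lie in exons, 47 bp from a start of *2610035F20Rik* and 269 bp from a start of *Gm10837*. At *Otx2* +7228 and -131 and *Zic2* -1903 and +12755 all *Pou5f1*-KO late ICM libraries lie below all of their Ctrl libraries, and at *Fgf5* +39189 they lie mostly above them.

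At *Fgf5* the calls were in the opposite direction. Fgf5 +39189 was open in all 12 groups, with means of 4.08 to 6.29. In the late ICM its values were 4.70, 3.85, 4.86 and 4.70 in Ctrl and 5.92, 5.27, 5.55 and 4.69 in *Pou5f1*-KO, with 3 KO libraries above every Ctrl library (0.83 ± 0.30, adjusted p = 0.0426). The early ICM values were 5.59, 4.99, 5.30 and 5.61 in Ctrl and 5.97, 6.26, 6.31 and 6.63 in KO, without overlap (0.92 ± 0.30, adjusted p = 0.0416). In Ctrl embryos it fell by 1.17 ± 0.33 from morula to late ICM (adjusted p = 0.00263). Fgf5 -1413 had values of -0.02, -0.10, -0.03 and 0.38 in Ctrl early ICM and 1.96, 1.48, 1.09 and 1.69 in KO early ICM (1.5 ± 0.41, adjusted p = 0.00864). In the late ICM it differed by -0.66 ± 0.41 (adjusted p = 0.28). It had been at 1.97, 1.79 and 1.34 in Ctrl late morula, and fell in Ctrl to the early ICM (-1.65 ± 0.44, adjusted p = 0.00257). The change in its KO effect from late morula to early ICM was 2.28 ± 0.62 (adjusted p = 0.0715), and 0.0404 with the replicate block, a pairing by number that the data bear out at both of these stages. Fgf5 -1995 fell from 3.07, 2.23 and 2.90 in Ctrl morula to 1.44, 0.78, 0.55 and 0.77 in Ctrl late ICM (-1.85 ± 0.46, adjusted p = 0.000755). The early ICM call at -1413 held with each library left out. Those at +39189 did not: in the early ICM it was lost without KO replicates 2, 3 or 4 or Ctrl replicates 2 or 3 (adjusted p up to 0.157) and under quantile normalization (0.0545), and in the late ICM without KO replicates 1, 2 or 3 or Ctrl replicates 2 or 4 (up to 0.214).

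At *Pou3f1* the start site peak and an upstream peak moved in opposite directions. While +721 opened, -11718 closed in *Pou5f1* Ctrl, from 4.61, 4.98 and 5.05 in the morula and 4.02, 4.26, 4.24 and 4.49 in the early ICM to 2.26, 3.01, 1.97 and 2.85 in the late ICM. From morula the difference was -2.36 ± 0.41 (adjusted p = 1.94e-06) and from early ICM -1.73 ± 0.38 (adjusted p = 0.0134). In *Sox2* Ctrl it averaged 4.34 in the early and 4.04 in the late ICM (-0.30 ± 0.38, adjusted p = 0.825). The difference between the lines in this step was not tested. The fall between those stages of *Pou5f1* Ctrl lost its call without Ctrl early ICM replicate 4 or Ctrl late ICM replicate 3 (adjusted p up to 0.0843). In *Pou5f1*-KO late ICM the peak was at 4.45, 2.67, 3.02 and 3.98, higher than its own Ctrl by 1.01 ± 0.38 (adjusted p = 0.0479) with overlapping libraries, at a mean of 3.53 that is below the 4.04 of *Sox2* Ctrl; this call was lost without replicate 1 of either genotype, Ctrl replicate 3 or KO replicate 4 (up to 0.248), and with only the libraries compared (0.0799). In the early ICM the difference was -0.93 ± 0.38 (adjusted p = 0.12, and 0.0481 with the replicate block, where the numbers pair the libraries). Pou3f1 -25125, farther upstream, also fell in Ctrl from morula to late ICM (-1.55 ± 0.39, adjusted p = 0.000782). The start site peak +721 was not called in any KO comparison; its late ICM values were 2.63, 4.62, 4.16 and 3.86 in *Pou5f1*-KO (-0.54 ± 0.42, adjusted p = 0.408). Pou3f1 +30631, in an intron of *Utp11*, was at 2.01, 2.81 and 2.19 in KO morula and 0.10, 0.02 and 1.05 in Ctrl morula (1.94 ± 0.47, adjusted p = 0.036), with means of 0.19 to 1.31 in the other groups; that call was lost without Ctrl replicates 1 or 2 or KO replicates 2 or 3 (up to 0.24), and with only the libraries compared (0.187).

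No *Lef1* peak was called in any of the 6 KO comparisons by limma with no replicate block. In *Pou5f1*-KO late ICM 2 of 19 were lower and 0 higher at an unadjusted p under 0.05, the differences ran from -0.95 to 0.86 with SEs of 0.21 to 0.45, and the smallest adjusted p was 0.0688, at +136672 over *Hadh* (-0.85 ± 0.34). With the replicate block, where the numbers do not pair these libraries, that peak was called (adjusted p = 0.0296). That peak had values of 4.66, 4.63, 4.77 and 4.65 in Ctrl and 3.50, 4.12, 4.29 and 3.41 in KO late ICM, with no overlap. In *Sox2*-KO late ICM the smallest adjusted p was 0.261, at +124188 (-0.80 ± 0.40). The strong peak +135859 differed by -0.23 ± 0.21 in *Pou5f1*-KO and 0.01 ± 0.21 in *Sox2*-KO late ICM. Lef1 -26552, far upstream and away from *Hadh*, closed in Ctrl from 4.81, 4.09 and 4.13 in the morula to 1.96, 2.13, 1.28 and 2.11 in the late ICM (-2.47 ± 0.46, adjusted p = 1.05e-05). The peak nearest to a *Lef1* start, +5929, was at -0.26 to 0.09 in the 4 *Pou5f1* Ctrl and at -0.31 to 0.97 in the 4 *Sox2* Ctrl late ICM libraries. Its 12 group means ran from -0.13 to 1.93.

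The role of Sox2, which pairs with Oct4 on composite motifs, was asked in *Sox2*-KO ICM. In the early ICM no member was called by limma, with 1 lower and 0 higher at an unadjusted p under 0.05. Under quantile normalization 2.14% of all peaks were called lower and 0.319% higher at that stage, so the absence of calls is near the background. In the late ICM 2 fell and 1 rose (3.33% and 1.67%), against 4.88% and 2.71% of all peaks. With a library left out 0 to 3 fell and 0 to 2 rose; no peak fell without *Sox2*-KO replicate 3. With the replicate block, where the numbers do not pair the libraries, 4 fell and 2 rose, against 5.88% and 4.22% of all peaks, with Otx2 +6427, Zic2 +2533 and Fgf5 +39189 added (adjusted p = 0.0381, 0.0378 and 0.0192). Of the peaks called without the block, both that fell were downstream *Otx2* peaks that also fell without Oct4. Otx2 +6835 had values of 3.36, 3.59, 3.92 and 4.01 in *Sox2* Ctrl and 2.47, 1.82, 1.16 and 3.00 in *Sox2*-KO late ICM, with no overlap (-1.60 ± 0.44, adjusted p = 0.00905). Otx2 +7228 had values of 3.13, 3.26, 3.10 and 2.46 in Ctrl and 1.29, 1.21, 1.72 and 2.46 in KO (-1.32 ± 0.43, adjusted p = 0.0415), the highest KO library standing level with the lowest Ctrl library. At the earlier ICM stage they differed by -0.08 ± 0.44 and -0.31 ± 0.43, and neither was called. Their neighbour +6427 differed by -1.24 ± 0.45 (adjusted p = 0.0733). Zic2 +2533, at 1.88, 1.92, 1.45 and 2.02 in Ctrl and 0.81, 0.11, 0.97 and 0.37 in KO, did not overlap between the groups but was not called (-1.25 ± 0.43, adjusted p = 0.0565), and Pou3f1 -25125 differed by 0.53 ± 0.36 (adjusted p = 0.468). The peak that rose was Fgf5 +29455, at 2.04, 2.09, 0.30 and 1.02 in *Sox2*-KO and -0.13, 0.41, -0.22 and 0.00 in Ctrl (1.35 ± 0.42, adjusted p = 0.0267). The call at +6835 was lost without KO replicate 3 (adjusted p = 0.0877), that at +7228 without replicate 1, 2 or 3 of either genotype (up to 0.142) and under quantile normalization (0.0662), and that at Fgf5 +29455 without replicate 1 of either genotype, KO replicate 2 or Ctrl replicates 3 or 4 (up to 0.145).

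Whether the 2 knockouts acted unequally on a peak was tested as a difference of their effects, and no member passed in the early or the late ICM with limma and no replicate block. Few peaks passed anywhere: under quantile normalization 0.306% of all peaks were lower and 0.367% higher in the early, and 0.357% and 0.274% in the late ICM. With the block Fgf5 -1413 passed in the early ICM (2.03, adjusted p = 0.0366, and 0.0655 without it). There same-numbered libraries deviated together in both lines, with correlations as low as 0.0859 in the *Sox2* line. In the late ICM, where the numbers pair neither line, Otx2 -16123, Otx2 -16444 and Zic2 +12755 passed with the block (adjusted p = 0.0396, 0.0401 and 0.0291). The means of Otx2 -16123 and -16444 were 2.27 and 3.00 in *Sox2* Ctrl and 3.14 and 3.72 in *Sox2*-KO late ICM, where neither was called (adjusted p = 0.209 and 0.331). They were 3.31 and 4.14 in *Pou5f1* Ctrl and 2.24 and 3.05 in *Pou5f1*-KO. At an unadjusted p under 0.05 there were 5 lower and 3 higher in the early and 8 lower and 2 higher in the late ICM. The nearest was Zic2 +12755, which fell by 1.81 in *Pou5f1*-KO and differed by 0.40 ± 0.44 in *Sox2*-KO late ICM, a difference of -2.21 ± 0.62 (adjusted p = 0.0562). Otx2 -131, called without Oct4, differed by -0.61 ± 0.43 without Sox2, and the difference of the effects was -1.25 ± 0.60 (adjusted p = 0.37). At Otx2 +6835 the 2 effects were -1.33 and -1.60 and differed by 0.28 ± 0.62 (adjusted p = 0.91). The Ctrl embryos of the lines were not alike at every member. In the late ICM Zic2 +12755 was lower in *Sox2* Ctrl, at 1.33, 1.37, 2.35 and 0.69, than in *Pou5f1* Ctrl (-1.94 ± 0.44, adjusted p = 0.00778), and Pou3f1 -11718 was higher, at 4.38, 3.52, 3.77 and 4.49 (1.52 ± 0.38, adjusted p = 0.0176), where 0.667% of all peaks were lower and 0.763% higher. These calls were lost without *Sox2* Ctrl replicate 4, and the second also without *Sox2* Ctrl replicate 1 or *Pou5f1* Ctrl replicate 3 (adjusted p up to 0.0588 and 0.101). For these 2 peaks the KO effects of the lines start from different Ctrl levels. Over the 15 *Otx2* peaks the median of *Sox2* Ctrl minus *Pou5f1* Ctrl late ICM was -0.73. Of these 2 differences were positive and 5 were lower at an unadjusted p under 0.05, with none called. Late ICM locus means at *Otx2* were 3.14 in *Pou5f1* Ctrl, 2.55 in *Sox2* Ctrl, 2.25 in *Pou5f1*-KO and 2.20 in *Sox2*-KO. At *Zic2* they were 2.71, 2.07, 1.88 and 1.65. How far this sets the unequal numbers of calls was not tested.

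Other genes of the same stage were read from a list, from which 1 gene was left out after its counts were known, so the totals describe the remaining genes only. Over 13 further formative and early post-implantation genes, 195 peaks within 30 kb, of which 11 are also members through *Zic5*, included 28 lower and 13 higher in *Pou5f1*-KO late ICM (14.4% and 6.67%, against 10.1% and 8.19% of all peaks; median difference -0.12). At *Foxd3*, a forkhead factor of the epiblast, 11 of 14 peaks fell (median -1.35), and at *Etv1*, an ETS factor downstream of FGF signalling, 4 of 9 (-1.02). At the de novo DNA methyltransferase genes *Dnmt3a* and *Dnmt3b* 0 of 38 and 2 of 18 fell and 4 and 3 rose (medians 0.31 and 0.25), and at *Sox12* and *Sall2* none of 14 and 11 was called. From morula to late ICM in Ctrl, 12 of 14 *Foxd3* peaks had risen, whereas 15 of 38 *Dnmt3a* peaks fell. In *Sox2*-KO late ICM 17 of the 195 fell and 10 rose (8.72% and 5.13%, against 4.88% and 2.71% of all peaks). Of the 209 peaks of naive genes, read against the same shares of all peaks, 54 fell and 5 rose in *Pou5f1*-KO late ICM (25.8% and 2.39%; median -0.49), and in *Sox2*-KO late ICM 17 were lower and 7 higher (8.13% and 3.35%; median -0.01).

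Markers of other cell types were read in the same libraries. Of 191 peaks at trophectoderm genes, 21 rose and 19 fell in *Pou5f1*-KO late ICM (11% and 9.95%, against 8.19% and 10.1% of all peaks), with mean levels of 3.13 to 3.52 over the KO and 3.19 to 3.43 over the Ctrl libraries. In *Sox2*-KO late ICM 9 rose and 5 fell (4.71% and 2.62%, against 2.71% and 4.88%), with levels of 3.34 to 3.52 against 3.16 to 3.27. Of 100 peaks at primitive endoderm genes, 6 rose and 18 fell in *Pou5f1*-KO late ICM (6% and 18% of them, against 8.19% and 10.1%), with levels of 2.48 to 2.58 against 2.72 to 2.84. In *Sox2*-KO late ICM 4 of them rose and 3 fell (4% and 3%, against 2.71% and 4.88%). The start site peaks of the 11 trophectoderm genes differed in both directions between *Pou5f1*-KO and Ctrl late ICM, with 7 higher and 4 lower means in KO, differences of -0.47 to 1.20 and a median of 0.05. Those of *Krt18*, a keratin, and *Gata3* averaged 5.23 and 5.09 in *Pou5f1*-KO and 4.21 and 4.25 in its Ctrl, and those of *Cdx2*, *Tfap2a* and *Tead4* 4.71, 4.71 and 4.84 in *Pou5f1*-KO and 4.92, 5.15 and 5.11 in its Ctrl. In that line the lowest difference was at *Elf5*. Between *Sox2*-KO and its Ctrl late ICM 9 of the 11 means were higher and 2 lower (-0.19 to 1.25, median 0.43). Of the 7 primitive endoderm start site peaks 2 had higher and 5 lower means in *Pou5f1*-KO late ICM (-1.26 to 0.37), and 3 higher and 4 lower in *Sox2*-KO late ICM (-0.68 to 1.13). No group mean of these 18 peaks was at 0, and the lowest in the *Pou5f1* late ICM was that of *Foxa2*, an endoderm factor, at 0.51 in KO and 0.63 in Ctrl. The part of these markers in the *Otx2*, *Zic2* and *Fgf5* results was not tested.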

How the data were processed

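The ATAC-seq libraries of all 44 embryo pools were used. The authors trimmed reads with SeqPurge, aligned to mm10 by Bowtie2, dropped duplicates (Picard), called peaks with MACS2, resized them to 200 bp, counted insertions with BEDTools, and deposited log2 values from the rlog transformation of DESeq2; insertion counts and depth are unknown here. Means per group in a separate table were not used. All columns were matched to a library.

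Values of all 152393 peaks were fitted with limma 3.58.1 (R 4.3.3; lmFit, contrasts.fit, eBayes with a trend), with a mean per group and 32 residual degrees of freedom. P-values were two-sided and Benjamini-Hochberg adjusted across every peak of the table; below 0.05 after adjustment counted as called. Means are given ± SD and differences ± SE. Genes were taken from GENCODE vM21 (the authors used vM23) and sequences from the RefSeq GRCm38 assembly. Tables were made with Python 3.11.15 and pandas 2.3.3.

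The members and gene lists were chosen with earlier results of these data known. From the list of further formative genes 1 gene is not reported here, and its peaks were left out of the counts after they had been computed. Named were, per locus, the start site peak within 1 kb, the peak with the highest mean, the best supported peak for the late ICM effect of each knockout and for Ctrl from morula to late ICM, and the 17 members called in a KO comparison; *Lef1* +5929 and +135413 and the genes of the lists were named after their values were seen. Same-numbered KO and Ctrl libraries deviated together in the *Pou5f1* late morula (correlations of 0.109 to 0.192) and early ICM (0.121 to 0.162), so the numbers pair the libraries there. In each other line and stage at least 1 correlation was under 0.1. In the *Pou5f1* morula (0.0479 to 0.153) and *Sox2* early ICM (0.0859 to 0.293) each still exceeded those of its Ctrl library with other numbers. In the late ICM of either line some did not, as at *Pou5f1* replicate 3 (0.0583 against 0.0597) and *Sox2* replicate 2 (-0.0248 against 0.0652). Alternatives were quantile normalization, only the libraries compared, peaks at or above the median rlog, a robust variance model, the replicate block, each library left out, and members within 10 kb.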

Additional observations from a re-analysis of the deposited data

Results flagged for a closer look

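In 44 groups of 4 libraries, each a named peak in one ICM group, the highest or lowest library was tested for a gap to the others that is large for the group's range, and 5 stood apart; chance gives about 1 in 20 groups. The 44 did not cover every ICM group of the 30 named peaks. All 5 lay in groups of KO comparisons in which the peak was called. At *Fgf5* -1413, *Pou5f1* Ctrl early ICM replicate 4 was at 0.38 and the others at -0.10 to -0.02. At *Zic2* -1903, *Pou5f1*-KO early ICM replicate 4 was at 1.58 and the others at 0.01 to 0.22, and *Pou5f1* Ctrl early ICM replicate 2 was at 2.88 and the others at 1.40 to 1.43. At *Otx2* +7228, *Pou5f1*-KO late ICM replicate 1 was at 2.10 and the others at 0.28 to 0.51. At *Fgf5* +39189, *Pou5f1* Ctrl late ICM replicate 2 was at 3.85 and the others at 4.70 to 4.86.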

How the results depend on the processing

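No called peak reversed under any alternative: 267 of its values under other settings kept their call and 12 lost it, and with a library left out 366 kept it and 93 lost it. Of the counts of called members, 178 under other settings stayed within 1.5 times the reported one and 38 did not. Depth is unknown, so its limit cannot be given. With weaker peaks (mean under the median) filtered out, which removes members, *Pou5f1*-KO had 0 higher in the morula, 0 lower and 1 higher in the early ICM and 5 lower in the late ICM, and *Sox2*-KO late ICM 1 lower and 0 higher. In that setting Ctrl embryos had 3 lower and 9 higher from late morula to early ICM, 4 lower and 9 higher from morula to late ICM, 0 lower from early to late ICM in *Sox2* Ctrl, and 0 lower in *Sox2* against *Pou5f1* Ctrl late ICM. Members within 10 kb, also fewer, gave 0 higher in *Pou5f1*-KO morula, 1 higher in early ICM, 7 lower and 0 higher in late ICM; 2 lower and 10 higher from late morula to early ICM; 5 lower from morula to late ICM; and 0 lower from early to late ICM in both lines and 0 lower and 0 higher between Ctrl late ICMs. Quantile normalization gave 2 lower and 1 higher in *Pou5f1*-KO early ICM, 1 lower in *Sox2*-KO late ICM and 6 lower from morula to late morula. Only the libraries compared gave 0 higher in *Pou5f1*-KO morula, 1 lower in early ICM, 1 lower and 1 higher from morula to late morula, 0 lower from early to late *Sox2* Ctrl ICM and 2 lower between Ctrl late ICMs. The cause was not tested where no members were removed.

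With the replicate block *Sox2*-KO late ICM had 4 lower and 2 higher, the difference of the knockout effects 1 higher in the early (*Fgf5* -1413) and 3 lower in the late ICM (*Otx2* -16123 and -16444 and *Zic2* +12755, adjusted p = 0.0396, 0.0401 and 0.0291), and the change of the *Pou5f1* effect from late morula to early ICM 1 higher; other counts stayed within 1.5 times. Same-numbered KO and Ctrl libraries deviated together in the *Pou5f1* morula, late morula and early ICM and in the *Sox2* early ICM. Elsewhere the block is a shared number only.

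With each library left out, *Pou5f1*-KO gave 0 to 1 higher in the morula, 1 to 3 lower and 1 to 4 higher in the early ICM and 5 to 11 lower and 0 to 2 higher in the late ICM; *Sox2*-KO late ICM gave 0 to 3 lower and 0 to 2 higher. Stages gave 0 to 1 lower and 0 to 2 higher from morula to late morula, 3 to 7 lower from late morula to early ICM, and 0 to 1 lower from early to late ICM in each line. The difference of the effects gave 0 to 1 higher in the early and 0 to 1 lower in the late ICM, and the Ctrl lines 0 to 1 lower in the early and 0 to 2 lower and 0 to 2 higher in the late ICM.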
